A study of Mus musculus with 9 samples.

Results

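These results cover 10 genes that import cystine, make, recycle, use or break down glutathione: Slc7a11, Slc3a2, Gclc, Gclm, Gss, Gsr, Gpx4, Gpx1, Chac1 and Ggt7. They were chosen by symbol, and all 10 were found among the 55335 genes of the deposited table. The 9 libraries were made from RNA of mouse substantia nigra, a part of the midbrain whose dopaminergic neurons degenerate in Parkinson disease, and fall into 3 groups of 3. Vehicle mice were injected with saline 2 times a week, and this went on for 5 weeks. MPTP mice were given MPTP-HCl, a precursor of a toxin that enters dopaminergic neurons, in the abdomen at 20 mg/kg on the same schedule. The exercise mice, called MPTP + PE by the submitters, were given the same MPTP and ran voluntarily on wheels for 2 months after the first injection. All exercise mice were therefore MPTP-treated, and running without MPTP was not among the groups analysed here. Strain, age and sex were not given in the sources used here. The series title names Slc7a11, Alox12 and ferroptosis of microglia, while each library holds all cells of the dissected tissue. The tissue came from 3 mice in each group, so that each library may be a single mouse, which is not stated outright. The p-values therefore measure the spread between these libraries.

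Cells make the antioxidant glutathione from glutamate, cysteine and glycine, and cysteine is often the scarce part. Slc7a11 and Slc3a2 together form system xc-, the membrane exchanger that brings in cystine, the oxidised pair of cysteine, and releases glutamate. Gpx4 uses glutathione to reduce lipid peroxides in membranes, and ferroptosis is the iron-dependent form of cell death that follows when such peroxides build up.

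The 250 bases before the transcription start are shown for 4 genes, because Slc7a11, Chac1 and Gclm are textbook targets of the stress factors ATF4 or NRF2 and because Gpx4 was the member whose MPTP-treated groups stood apart from vehicle. The RefSeq promoter table held 8 of the 10 genes in 11 windows, on build GRCm38.p6, and had no entry for Gclc and Gsr. All windows were searched on both strands for the ATF4 and C/EBP composite site TGATGNAAN, the antioxidant response element core TGACNNNGC bound by NRF2, and the CCAAT box. Capitals mark the composite site in Slc7a11 and Chac1, the antioxidant response element core in Gclm and the CCAAT boxes in Gpx4. Each sequence is written 5′ to 3′ on the strand of its gene.
Slc7a11, chr3:50443614-50443863, minus strand: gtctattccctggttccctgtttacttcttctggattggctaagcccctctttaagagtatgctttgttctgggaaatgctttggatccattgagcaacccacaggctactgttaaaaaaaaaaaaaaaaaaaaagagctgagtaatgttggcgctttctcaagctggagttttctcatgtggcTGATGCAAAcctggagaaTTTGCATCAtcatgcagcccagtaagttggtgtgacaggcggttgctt
Chac1, chr2:119350992-119351241, plus strand: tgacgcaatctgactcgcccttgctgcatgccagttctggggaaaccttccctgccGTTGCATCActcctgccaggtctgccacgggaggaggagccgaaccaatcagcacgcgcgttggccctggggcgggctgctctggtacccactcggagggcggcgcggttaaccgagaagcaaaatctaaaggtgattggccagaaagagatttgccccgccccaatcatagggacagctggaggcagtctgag
Gclm, chr3:122245307-122245556, plus strand: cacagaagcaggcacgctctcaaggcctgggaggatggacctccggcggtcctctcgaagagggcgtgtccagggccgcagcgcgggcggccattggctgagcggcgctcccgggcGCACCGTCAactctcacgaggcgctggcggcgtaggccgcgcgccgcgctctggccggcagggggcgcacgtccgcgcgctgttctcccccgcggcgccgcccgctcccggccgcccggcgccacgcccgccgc
Gpx4, chr10:80053315-80053564, plus strand, 1 of 4 windows of this gene: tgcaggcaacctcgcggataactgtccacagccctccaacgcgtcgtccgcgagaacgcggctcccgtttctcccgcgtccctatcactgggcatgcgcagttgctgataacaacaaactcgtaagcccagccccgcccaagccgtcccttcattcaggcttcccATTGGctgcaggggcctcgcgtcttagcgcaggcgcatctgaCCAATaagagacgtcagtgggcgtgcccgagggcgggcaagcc

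The Slc7a11 window held the composite letters TGATGCAAA at 2 places, 66 bases before the start on the strand of the gene and 48 bases before it on the opposite strand. The Chac1 window held TGATGCAAC on the opposite strand, 194 bases before the start. No other member window held the composite letters, which were present in 3.44% of all 32851 windows of this length. The antioxidant response element core occurred in Gclm alone among the members with a window, as TGACGGTGC on the opposite strand 134 bases before the start, against 10.2% of all windows. The Gpx4 window held CCAAT 85 bases before the start on the opposite strand and 43 bases before it on the strand of the gene, and 33.8% of all windows held these letters. The shorter motif also occurred in the windows of Slc7a11, Gclm and Chac1, where it is not capitalised. A match describes the letters only, and binding was not measured.

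The members spanned a wide range of levels. FPKM, fragments scaled to transcript length and library size, is scaled to gene length and so allows levels to be set side by side. The length used for each gene is not given in the sources used here. Annotated exonic lengths ran from 1441 bases for Gpx1 to 13922 bases for Slc7a11, so the order of the genes depends on that length. Gpx4 had the highest level, with a mean of 128 FPKM over the 9 libraries, above 98.8% of the 15997 genes tested. Gpx1, the cytosolic glutathione peroxidase, followed at 35.2 FPKM, and both orders held in all 9 libraries. Slc3a2 at 23.1 and Ggt7 at 22.7 FPKM were not separated, as Slc3a2 was the higher of the pair in 6 of 9 libraries. Gclc at 15.5 FPKM lay below Ggt7 and above Gsr in all 9 libraries. Gsr at 7.91 and Gclm at 7.0 FPKM were not separated, with Gsr higher in 5 of 9 libraries. Gss at 3.75, Chac1 at 3.73 and Slc7a11 at 3.27 FPKM formed the low end and overlapped one another. Slc7a11, at the bottom of the order, still lay above 42.2% of the genes tested. Its partner Slc3a2, which also serves as the heavy chain of other amino acid transporters, was the third of the 10 in level.

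**Figure D1:**
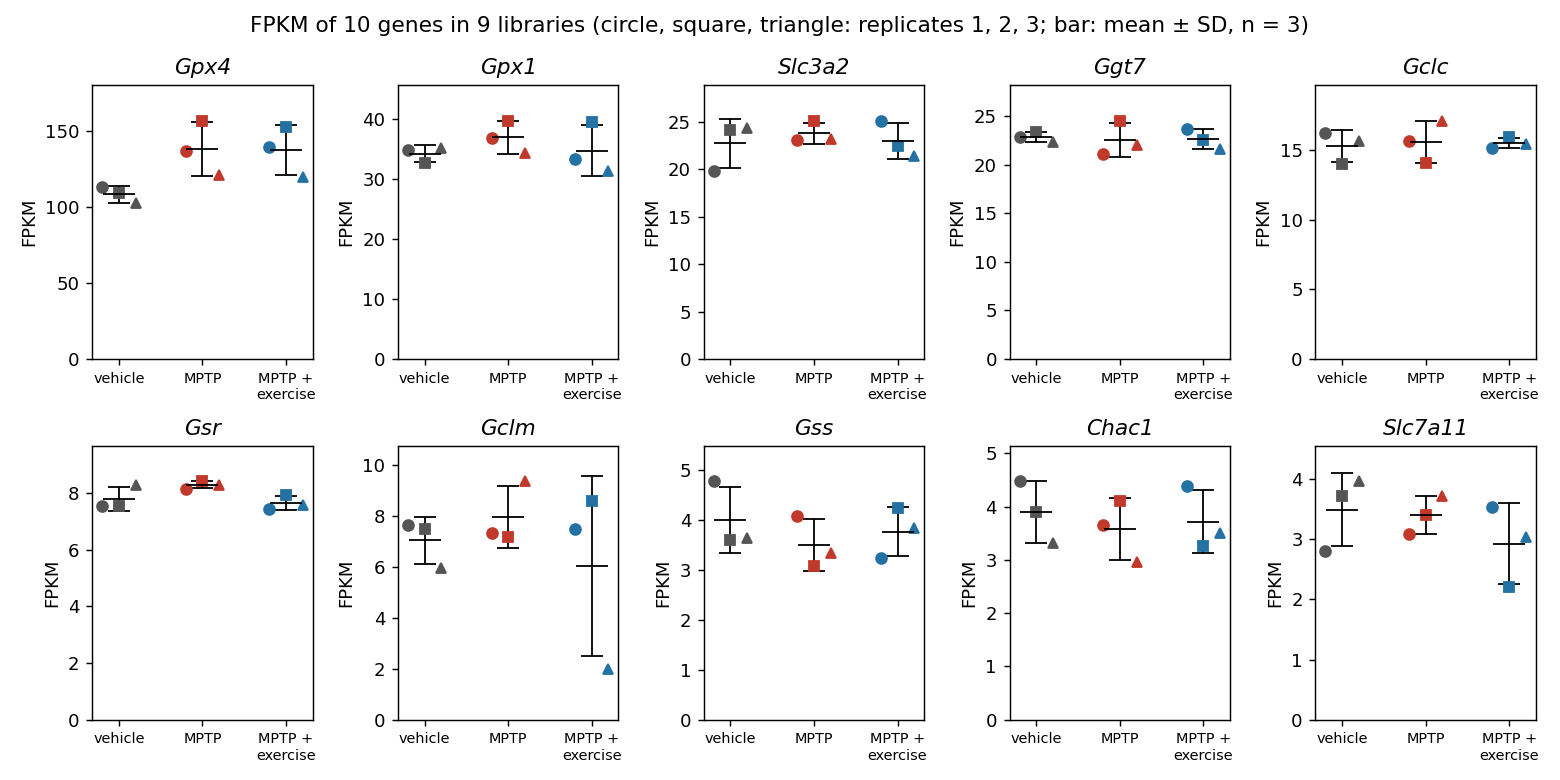
Level of each of the 10 genes in FPKM in every library, with 1 point per library and a bar at the mean of each group (vehicle, MPTP, MPTP with exercise; n = 3 each). Gpx4 is the panel in which every library of both MPTP-treated groups, from 119.8 to 157 FPKM, lies above every vehicle library, from 102 to 113 FPKM.

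No member passed the test in any comparison. Differences are given as log2 fold changes, which are differences of mean log2(FPKM + 1) and understate the change of low genes. They were tested with limma and Benjamini-Hochberg adjustment over all 15997 genes at a threshold of 0.05. Of 10 members, 0 were called between MPTP and vehicle, where 0.0125% of all genes were called. Likewise 0 members were called between exercise and MPTP, and 0 between exercise and vehicle, where 0% of all genes were called in each comparison. At an unadjusted p under 0.05, 1 member stood out between MPTP and vehicle (4.09% of all genes), 0 between exercise and MPTP (3.99%) and 1 between exercise and vehicle (6.54%), and both times it was Gpx4. Between MPTP and vehicle 6 members were on the higher side, where 48.1% of all genes were, and 4 on the lower, with a median log2 fold change of 0.05 against -0.01 over all genes. Between exercise and MPTP 3 were higher (45.7% of all genes) and 7 lower, with a median of -0.03 against -0.01. Between exercise and vehicle 4 were higher (44.7% of all genes) and 6 lower, with a median of -0.02 against -0.02. MPTP and exercise were both compared with the same 3 vehicle libraries, and exercise and vehicle both with the same 3 MPTP libraries, so the comparisons are not independent of each other.

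**Figure D2:**
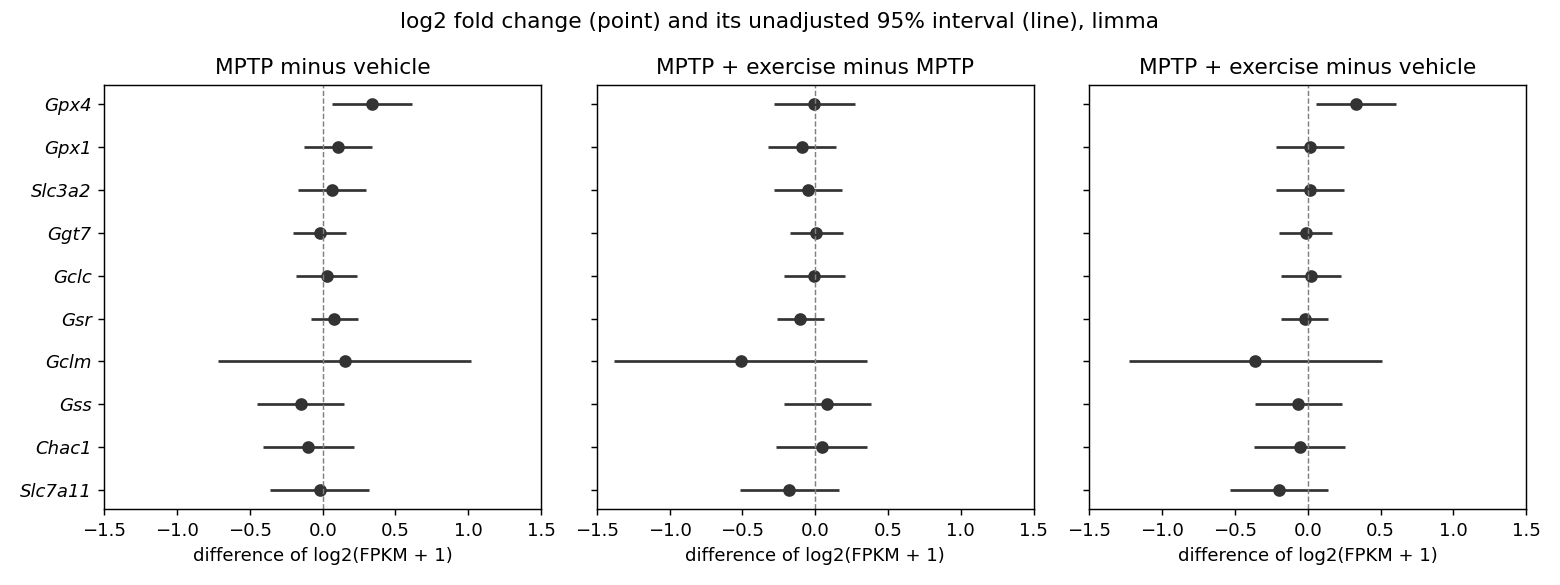
Log2 fold change of each of the 10 genes in the 3 comparisons, with 95% confidence intervals from the limma fit (n = 3 libraries per group). The intervals of Gpx4 against vehicle, 0.06 to 0.62 for MPTP and 0.06 to 0.61 for exercise, are the ones in the plot that do not reach 0, and neither has an adjusted p under 0.05.

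Cystine import was measured at nearly the same transcript level in MPTP and vehicle mice. Slc7a11 (ENSMUSG00000027737, chromosome 3 at 49892526 to 50443614, minus strand, GRCm38), the subunit that carries cystine, was at 2.80, 3.71 and 3.96 FPKM in vehicle mice. It was at 3.09, 3.40 and 3.72 FPKM in MPTP mice and at 3.53, 2.21 and 3.03 FPKM in exercise mice. The 3 groups overlapped, and the lowest library belonged to an exercise mouse. The group means were 3.49 ± 0.607 FPKM (SD, n = 3) in vehicle, 3.40 ± 0.314 FPKM in MPTP and 2.92 ± 0.666 FPKM in exercise mice. The log2 fold change of Slc7a11 was -0.02 between MPTP and vehicle (SE 0.15, 95% interval -0.36 to 0.32, limma with Benjamini-Hochberg adjusted p = 0.997). Exercise mice were 0.18 below MPTP mice on this scale, with a log2 fold change of -0.18 (95% interval -0.52 to 0.16). The largest difference was between exercise and vehicle, at -0.20 (95% interval -0.54 to 0.14, limma adjusted p = 0.780). These intervals all hold 0, and a difference of a size within them was not detectable with 3 libraries per group.

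Slc3a2 (ENSMUSG00000010095, chromosome 19 at 8706882 to 8723369, minus strand), the heavy chain that brings Slc7a11 to the membrane, was at 19.8, 24.1 and 24.3 FPKM in vehicle mice. It was at 23.0, 25.1 and 23.1 FPKM in MPTP mice and at 25.1, 22.5 and 21.4 FPKM in exercise mice. All groups overlapped, and the 3 log2 fold changes of Slc3a2 lay between -0.05 and 0.07. Across the 9 libraries Slc7a11 and Slc3a2 had a Pearson r of 0.591 (exact permutation p = 0.0948) and a Spearman rho of 0.683 (exact permutation p = 0.0503). Without the 2 libraries farthest from the median of Slc7a11, r was 0.584. This was 1 of 10 relations computed after the values had been seen, and its adjusted p were 0.246 and 0.252.

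In each group the library with the least Slc7a11 also stood at an end of its group in several cell type marker sums, of which oligodendrocytes were 1. The summed level of 6 oligodendrocyte markers was 1804, 1276 and 1145 FPKM in vehicle, 1622, 1270 and 1076 FPKM in MPTP and 1070.1, 1904 and 1189.6 FPKM in exercise libraries, in replicate order. The first vehicle, the first MPTP and the second exercise library thus had the highest sum in their groups, and Slc7a11 was lowest in these same libraries, at 2.80, 3.09 and 2.21 FPKM. These 3 libraries were also the highest of their groups in the sums of GABAergic neuron markers (227, 243 and 238 FPKM) and oligodendrocyte precursor markers (43.9, 43.0 and 42.4 FPKM). They were the lowest of their groups in the sums of microglia markers (119, 132 and 123 FPKM), glutamatergic neuron markers (87.0, 84.8 and 82.6 FPKM) and red blood cell markers (50.9, 31.4 and 10.8 FPKM). Single markers did not all follow these sums. The GABAergic marker Gad1, at 53.3, 44.1 and 33.6 FPKM in the 3 libraries, was below the highest of each group, 68.4, 50.5 and 47.0 FPKM. Gad2 and the precursor marker Cspg4 were the highest of their groups in the vehicle library only. By the sums, the match with Slc7a11 was therefore not particular to oligodendrocytes. Among the other 6 libraries Slc7a11 and the oligodendrocyte sum had a Pearson r of -0.231 (exact permutation p = 0.672, adjusted p = 0.747) and a Spearman rho of -0.257. Without the 3 libraries of highest sum the log2 fold changes of Slc7a11 were -0.08 between MPTP and vehicle, -0.09 between exercise and MPTP and -0.18 between exercise and vehicle. The part of tissue composition in the level of Slc7a11 was not tested further. In whole tissue, fewer cells of a type and less RNA per cell cannot be told apart.

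**Figure D3:**
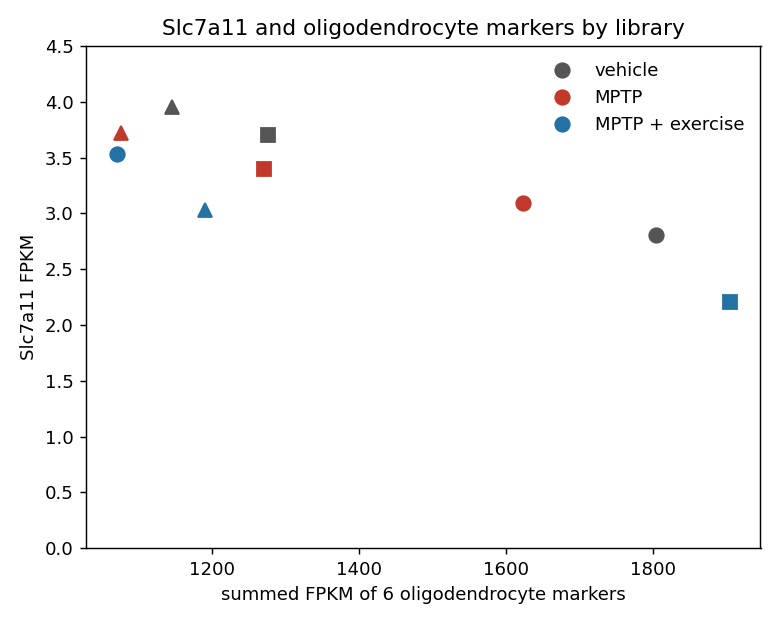
Slc7a11 in FPKM against the summed FPKM of 6 oligodendrocyte markers, with 1 point per library, coloured by group and shaped by replicate number (circle, square, triangle). The 3 libraries with sums from 1622 to 1904 FPKM have the lowest Slc7a11 of their groups, 2.21 to 3.09 FPKM. By marker sums they are also the highest of their groups in GABAergic neuron and precursor markers. By the same measure they are the lowest in microglia, glutamatergic neuron and red blood cell markers. The GABAergic marker Gad1 and the precursor marker Cspg4 do not follow these sums in all 3.

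The enzymes of glutathione synthesis showed no difference past the test. Gclc (ENSMUSG00000032350, chromosome 9 at 77754535 to 77794485, plus strand), the catalytic subunit of glutamate cysteine ligase and so of the rate-limiting step, was at 16.2, 14.0 and 15.6 FPKM in vehicle, 15.6, 14.1 and 17.1 FPKM in MPTP and 15.2, 15.9 and 15.5 FPKM in exercise mice. Its groups overlapped, and its 3 log2 fold changes lay between -0.01 and 0.03, with the outermost 95% bounds at -0.21 and 0.24. Gclc was among the steadiest genes of the table, as only 6.72% of the genes tested had a lower coefficient of variation over the 9 libraries than its 6.34%.

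Gclm (ENSMUSG00000028124, chromosome 3 at 122245557 to 122270732, plus strand), the regulatory subunit of the same ligase, was the least steady member. It was at 7.65, 7.49 and 5.96 FPKM in vehicle, 7.32, 7.16 and 9.35 FPKM in MPTP and 7.49, 8.57 and 1.98 FPKM in exercise mice. A single library, the third of the exercise mice, lay far below the other 8, which ran from 5.96 to 9.35 FPKM. The log2 fold change of Gclm between exercise and MPTP was -0.51 (SE 0.38, 95% interval -1.38 to 0.36) with that library and 0.02 (SE 0.15) without it. Between exercise and vehicle it was -0.36 with that library and 0.17 without it. Without the 3 libraries with Slc6a3 under 1 FPKM, where the third library alone is left in the exercise group, the values were -1.64 and -1.42. In the third exercise library Gclc stood at 15.5 FPKM, between the other exercise libraries. By annotation, exons of Gclm overlap those of the antisense gene Gm17494 over 296 bases and of the pseudogene Gm6061 on the same strand over 244 bases, together a small part of its 6291 exonic bases. In the third exercise library Gm17494 was listed at 0 and Gm6061 at 0.0584 FPKM. How the authors divided such reads is not given in the sources used here.

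Gss (ENSMUSG00000027610, chromosome 2 at 155563181 to 155592810, minus strand), glutathione synthetase, which adds glycine in the last step, was at 4.76, 3.59 and 3.63 FPKM in vehicle mice. It was at 4.07, 3.07 and 3.34 FPKM in MPTP mice and at 3.24, 4.22 and 3.82 FPKM in exercise mice, and the groups overlapped. Its log2 fold change was -0.15 between MPTP and vehicle (95% interval -0.45 to 0.15) and 0.08 between exercise and MPTP (95% interval -0.21 to 0.38). Exons of Gss overlap the antisense genes Acss2, Gssos1 and Gssos2 over 395, 322 and 385 bases, and without strand the reads cannot be told apart.

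Gsr (ENSMUSG00000031584, chromosome 8 at 33652523 to 33698163, plus strand), glutathione reductase, which returns oxidised glutathione to its reduced form with NADPH, was at 7.55, 7.54 and 8.28 FPKM in vehicle mice. It was at 8.16, 8.41 and 8.29 FPKM in MPTP mice and at 7.45, 7.94 and 7.58 FPKM in exercise mice. Every exercise library lay below every MPTP library, while vehicle overlapped both. Gsr was the 1 member of 10 without overlap between exercise and MPTP, where 8.02% of all genes did not overlap in either direction and 5.36% did so with lower values under exercise. The difference was small, at 7.66 ± 0.258 against 8.29 ± 0.125 FPKM (SD, n = 3 each), a log2 fold change of -0.10 (SE 0.07, 95% interval -0.26 to 0.06) with an exact two-sided permutation p of 0.1. That p is the smallest that 20 splits of 6 libraries allow. The 95% interval of Gsr reached 0, so the difference was within the error of the fit.

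Among the peroxidases Gpx4 was higher in both MPTP-treated groups than in vehicle mice, without passing the adjusted test. Gpx4 (ENSMUSG00000075706, chromosome 10 at 80047166 to 80056439, plus strand) was at 113, 109 and 102 FPKM in vehicle mice. It was at 136, 157 and 121 FPKM in MPTP mice and at 139, 153 and 119.8 FPKM in exercise mice. All 6 MPTP-treated libraries lay above all 3 vehicle libraries, and the MPTP and exercise libraries covered nearly the same range. The means were 108 ± 5.62 FPKM in vehicle, 138 ± 17.95 FPKM in MPTP and 137 ± 16.5 FPKM in exercise mice (SD, n = 3 each), 27.3% and 26.7% above vehicle.

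Gpx4 was the 1 member of 10 without overlap between MPTP and vehicle, where 9.43% of all genes did not overlap and 5.20% did so with higher values under MPTP. It was also the 1 of 10 between exercise and vehicle, where 15.6% of all genes did not overlap and 6.38% were higher under exercise. The log2 fold change of Gpx4 was 0.34 between MPTP and vehicle (SE 0.12, 95% interval 0.06 to 0.62, limma with Benjamini-Hochberg adjusted p = 0.991). Between exercise and vehicle it was 0.33 (SE 0.12, 95% interval 0.06 to 0.61, limma adjusted p = 0.753). The exact two-sided permutation p was 0.1 in both, the smallest possible. Between exercise and MPTP the log2 fold change was -0.01 (95% interval -0.28 to 0.27).

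The sum of all FPKM in a library moved with Gpx4. Unlike TPM values, FPKM values need not sum to the same total, and the sums were 319037, 319431 and 318416 in vehicle, 335981, 347524 and 326614 in MPTP and 344049, 340123 and 331121 in exercise libraries. Every vehicle sum lay below every MPTP-treated sum. Over the 6 MPTP-treated libraries Gpx4 and the sum had a Pearson r of 0.891 (exact permutation p = 0.025) and a Spearman rho of 0.886 (exact permutation p = 0.0333). The adjusted p over the 10 relations were 0.246 and 0.252, and r was 0.758 over the 4 libraries left without the 2 farthest. The 3 vehicle libraries are too few for a correlation of their own. With every library scaled to the same sum Gpx4 was at 118, 113 and 106 FPKM in vehicle, 135, 149 and 123 FPKM in MPTP and 134, 149 and 119.9 FPKM in exercise mice. The groups still did not overlap with vehicle, and the log2 fold changes were smaller than the unscaled ones, at 0.26 for MPTP and 0.25 for exercise against vehicle (limma adjusted p = 0.839 and 0.571). Without the 3 libraries in which the dopamine transporter Slc6a3 was under 1 FPKM, which leaves 1 exercise library, the difference between exercise and vehicle was 0.15. A processed pseudogene of Gpx4 is annotated as transcribed, and how reads were divided between the copies is not given in the sources used here.

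**Figure D4:**
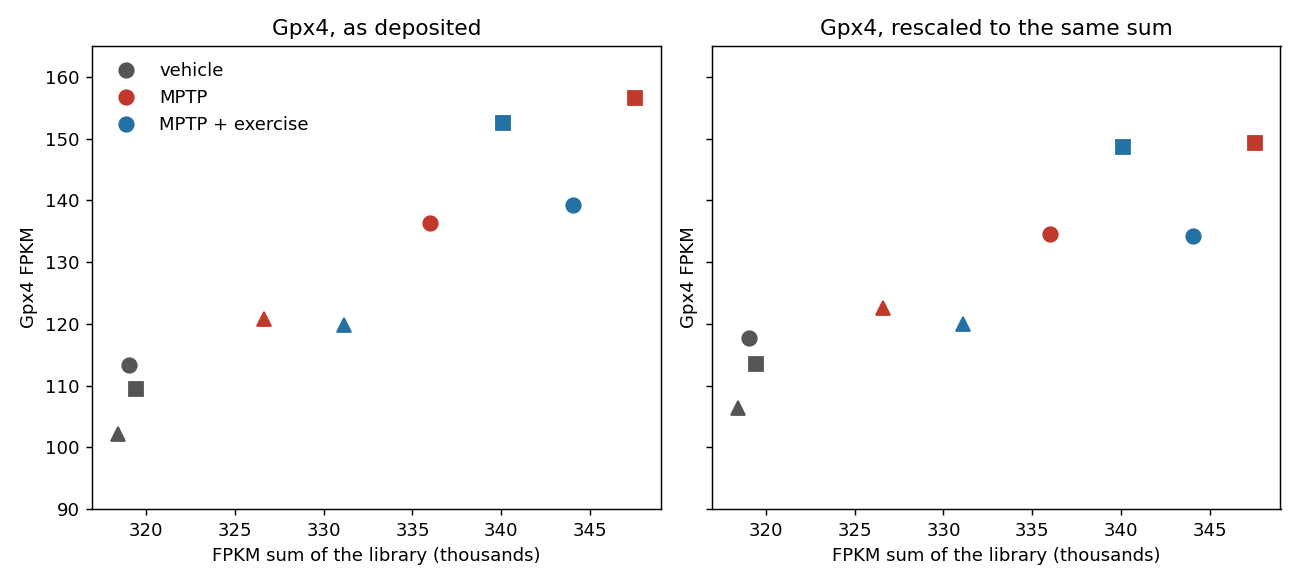
Gpx4 in FPKM against the sum of all FPKM in the library, with Gpx4 as deposited on the left and rescaled to the same sum on the right. Each panel has 1 point per library, coloured by group and shaped by replicate number (circle, square, triangle). The vertical axis does not start at 0. The 3 vehicle libraries sit together at sums from 318416 to 319431, and the 6 MPTP-treated libraries spread over higher sums and higher Gpx4.

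Gpx1 (ENSMUSG00000063856, chromosome 9 at 108338903 to 108340343, plus strand), which reduces hydrogen peroxide and soluble peroxides with glutathione, was at 34.8, 32.6 and 35.1 FPKM in vehicle mice. It was at 36.8, 39.7 and 34.2 FPKM in MPTP mice and at 33.3, 39.5 and 31.3 FPKM in exercise mice, and all groups overlapped. Its log2 fold change was 0.10 between MPTP and vehicle (95% interval -0.13 to 0.34), -0.09 between exercise and MPTP and 0.01 between exercise and vehicle. Gpx1 and Gpx4 were both highest in the second library of the MPTP group and of the exercise group. Their Pearson r over the 9 libraries was 0.673 (exact permutation p = 0.0507, adjusted p = 0.246) with a Spearman rho of 0.533, and r was 0.124 without the 2 libraries farthest from the median of Gpx1. The relation thus rested on those 2 libraries.

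The 2 members that take glutathione apart, or belong to the family that does, showed overlapping groups. Chac1 (ENSMUSG00000027313, chromosome 2 at 119351229 to 119354381, plus strand), a cyclotransferase that degrades glutathione inside the cell and is induced by ATF4, was at 4.47, 3.90 and 3.32 FPKM in vehicle mice. It was at 3.66, 4.11 and 2.96 FPKM in MPTP mice and at 4.38, 3.27 and 3.51 FPKM in exercise mice. The log2 fold changes of Chac1 were -0.10 between MPTP and vehicle (95% interval -0.41 to 0.21), 0.05 between exercise and MPTP and -0.05 between exercise and vehicle. Ggt7 (ENSMUSG00000027603, chromosome 2 at 155490379 to 155518237, minus strand), a member of the gamma-glutamyltransferase family, was at 22.8, 23.4 and 22.4 FPKM in vehicle, 21.1, 24.5 and 22.1 FPKM in MPTP and 23.7, 22.6 and 21.6 FPKM in exercise mice. Ggt7 was the steadiest member, with a coefficient of variation of 4.71% over the 9 libraries, and only 1.76% of the genes tested had a lower one. Its 3 log2 fold changes lay between -0.02 and 0.01. Exons of Ggt7 overlap the antisense gene Acss2 over 197 bases.

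The other glutathione peroxidases were measured beside Gpx1 and Gpx4. Of 8 peroxidases, Gpx1 and Gpx4 included, 5 passed the filter of a mean of at least 0.5 FPKM, and these had a median log2 fold change of 0.16 between MPTP and vehicle (4 higher, 0 called), -0.05 between exercise and MPTP (5 lower, 0 called) and 0.11 between exercise and vehicle (4 higher, 0 called). Gpx8, a peroxidase of the endoplasmic reticulum, had the largest log2 fold change between MPTP and vehicle among these 5. It was at 3.24, 4.24 and 4.47 FPKM in vehicle, 7.53, 7.58 and 7.10 FPKM in MPTP and 5.89, 2.93 and 5.20 FPKM in exercise mice. Every MPTP library lay above every other library. Sums of endothelial markers (6 of 6 above 0 in every library) had the same order. They were 62.0 to 67.9 FPKM in MPTP against 45.8 to 56.9 FPKM in the other libraries. So did sums of choroid plexus markers, at 948 to 2055 FPKM against 20.7 to 942 FPKM. Single markers did not all follow. Cldn5 had this order among the endothelial markers, while Pecam1, Flt1, Cdh5, Ly6c1 and Slco1c1 overlapped with vehicle or exercise libraries. Ttr, which made up most of the choroid plexus sum, and Clic6 had it, while Folr1, Kl, Kcne2 and Aqp1 overlapped with exercise libraries. The part of these cell types in Gpx8 was not tested. The log2 fold change of Gpx8 was 0.76 between MPTP and vehicle (SE 0.20, limma with Benjamini-Hochberg adjusted p = 0.812) and -0.61 between exercise and MPTP (limma adjusted p = 0.9999), and neither passed.

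Glutathione transferases, which attach glutathione to reactive molecules, were mostly on the higher side under MPTP, without a call. Of 18 tested, 15 were higher between MPTP and vehicle, with a median log2 fold change of 0.06, while 48.1% of all genes were higher. Between exercise and MPTP 13 of the 18 were lower (median -0.09), and between exercise and vehicle 9 were higher and 9 lower (median 0.01). None was called in the limma test in any comparison. At an unadjusted p under 0.05 there were 3 of 18 between MPTP and vehicle (4.09% of all genes), 1 between exercise and MPTP (3.99%) and 1 between exercise and vehicle (6.54%). Gstm5, a mu class transferase, was at 79.2, 67.0 and 70.3 FPKM in vehicle, 85.8, 107 and 83.6 FPKM in MPTP and 102, 88.2 and 89.0 FPKM in exercise mice. As with Gpx4, all MPTP-treated libraries lay above all vehicle libraries, with log2 fold changes of 0.34 and 0.36 (limma adjusted p = 0.991 and 0.753). Gstm2 was at 0.810, 1.51 and 0.747 FPKM in vehicle, 1.52, 1.48 and 1.75 FPKM in MPTP and 0.541, 0.917 and 1.05 FPKM in exercise mice, and its MPTP libraries lay above all exercise libraries. Mu class transferases are close paralogs, and the division of reads among them is uncertain.

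Lists of the factors that control these genes gave no call either. Of 25 tested ATF4 targets 11 were higher and 14 lower between MPTP and vehicle, with a median log2 fold change of -0.01. Atf4 itself was at 39.8, 41.2 and 25.1 FPKM in vehicle, 42.3, 49.2 and 45.1 FPKM in MPTP and 36.6, 36.2 and 26.6 FPKM in exercise mice, highest in the MPTP group without overlap. Its target Ddit4, an inhibitor of mTOR signalling, was lowest in the MPTP group without overlap. It was at 31.2, 19.4 and 18.9 FPKM in vehicle, 11.98, 15.4 and 17.98 FPKM in MPTP and 21.8, 20.7 and 26.8 FPKM in exercise mice. The log2 fold changes between MPTP and vehicle were 0.39 for Atf4 and -0.57 for Ddit4, and both had a limma adjusted p of 0.991. Chac1 and Slc7a11, the members whose windows held the composite letters, were at -0.10 and -0.02 in that comparison. Slc3a2, the partner of Slc7a11, was at 0.07 in it. Of 22 tested genes of the NRF2 core list 14 were higher between MPTP and vehicle (median 0.05) and 15 lower between exercise and MPTP (median -0.07). Nfe2l2, which encodes NRF2, was at 5.39, 4.87 and 4.38 FPKM in vehicle, 5.35, 6.04 and 5.55 FPKM in MPTP and 4.94, 5.04 and 4.71 FPKM in exercise mice, a log2 fold change of 0.18 between MPTP and vehicle and of -0.17 between exercise and MPTP.

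The remaining lists had 0 calls as well. The thioredoxin and peroxiredoxin system, a parallel route of thiol reduction, had 12 of 17 genes higher between MPTP and vehicle (median 0.08) and 12 of 17 between exercise and vehicle (median 0.09), with 0 called. Glrx3, a glutaredoxin, was at 13.5, 13.3 and 11.6 FPKM in vehicle, 15.6, 16.4 and 13.6 FPKM in MPTP and 16.2, 17.2 and 15.5 FPKM in exercise mice. Both MPTP-treated groups lay above vehicle without overlap, by log2 fold changes of 0.23 and 0.33 (limma adjusted p = 0.991 and 0.753). Genes of NADPH supply had 11 of 15 higher between MPTP and vehicle (median 0.05), and genes of selenoprotein synthesis, which Gpx4 needs for its selenocysteine, 8 of 14 (median 0.01). Cysteine and glutamate supply had 7 of 15 higher (median -0.02), and the gamma-glutamyl cycle 5 of 9 (median 0.02). Defence against lipid radicals that does not need glutathione, with Aifm2 among its genes, had 6 of 8 higher (median 0.04). In each of these lists 0 genes were called in all 3 comparisons.

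**Figure D5:**
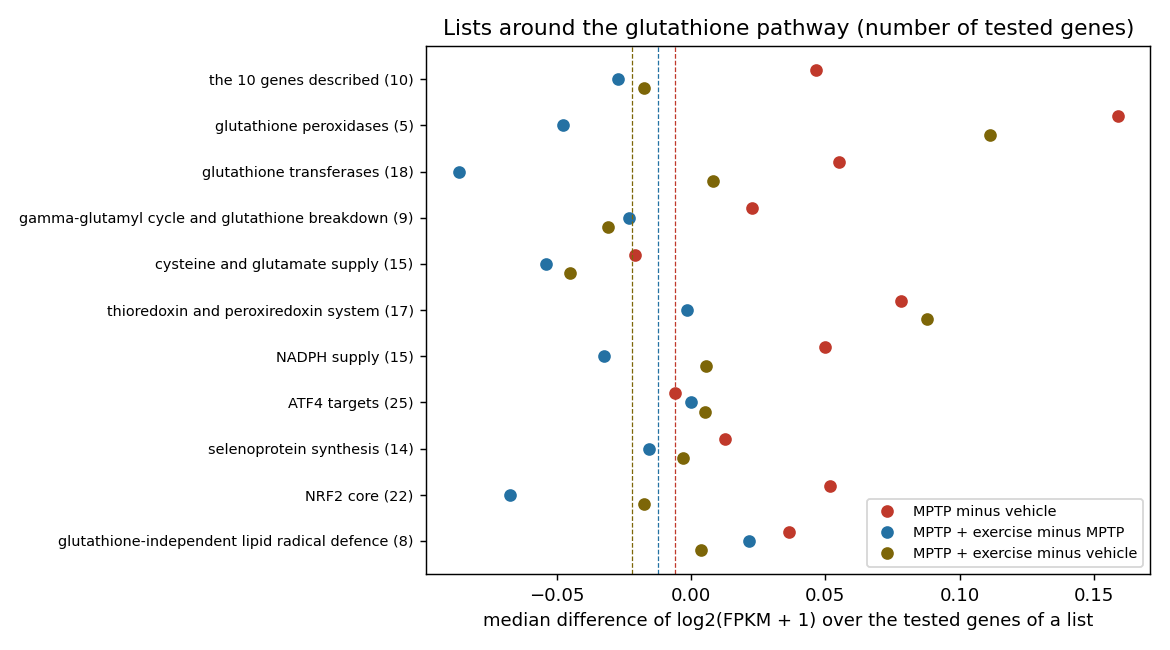
Median log2 fold change of the 10 genes and of each companion list in the 3 comparisons, with the number of tested genes in brackets and the median over all genes tested as a reference. The medians run from -0.09 for the transferases (exercise against MPTP) to 0.16 for the peroxidases (MPTP against vehicle), with 0 genes called in any list.

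Alox12, the other gene of the series title, encodes a lipoxygenase that adds oxygen to polyunsaturated fatty acids. It was at 0.172, 0.196 and 0.187 FPKM in vehicle, 0.232, 0.164 and 0.144 FPKM in MPTP and 0.0756, 0.0593 and 0.105 FPKM in exercise mice, under the filter of 0.5 FPKM. All 3 exercise libraries lay below the other 6. The sum of 4 neutrophil markers had the same order. It was 0.657 to 2.11 FPKM in exercise libraries against 4.07 to 7.31 FPKM in vehicle and 4.77 to 8.01 FPKM in MPTP libraries. All 4 were above 0 except S100a8, listed at 0 in 1 exercise library. Taken singly, S100a8, S100a9 and Ngp had this order, while Camp overlapped between exercise and MPTP. Camp was at 0.216 FPKM in the second exercise library against 0.146 FPKM in the first MPTP library. The order was not particular to neutrophil markers. Endothelial Pecam1, Flt1 and Cdh5 and fibroblast Col1a1 and Col1a2 had it too, while the other markers of those lists overlapped with vehicle or MPTP. Red blood cell sums overlapped, at 10.8 to 45.5 FPKM in exercise and 31.4 to 54.1 FPKM in MPTP libraries. The part of any cell type in the level of Alox12 was not tested. In a limma fit without the filter, over 35406 genes, the log2 fold change of Alox12 was -0.13 between exercise and MPTP (SE 0.03, Benjamini-Hochberg adjusted p = 1) and -0.13 between exercise and vehicle (adjusted p = 0.862). The exact two-sided permutation p was 0.1 in both comparisons, the smallest possible. At such a level few fragments stand behind each value, and their number was not derived.

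Genes whose levels followed the members most closely were taken from 12161 protein coding genes of at least 1 FPKM by Pearson r of log2(FPKM + 1) over the 9 libraries. For Slc7a11 they were Ctdspl2 (r = 0.957), Cdc25b (r = 0.945) and Dusp8 (r = 0.934). For Gpx4 they were Ndufa4 (r = 0.969), Cdkn2aipnl (r = 0.965) and Dynlt3 (r = 0.964). Such maxima are picked from many genes, and genes of 1 library share its depth and scaling, so the values are a description.

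The libraries differed in the levels of cell type markers. Slc6a3, the dopamine transporter and a defining marker of the dissected region, ran from 0 to 14.4 FPKM and was under 1 FPKM in 1 MPTP and 2 exercise libraries. Th, the rate-limiting enzyme of dopamine synthesis, ran from 1.64 to 15.6 FPKM. The libraries with Slc6a3 under 1 FPKM were all MPTP-treated. Loss of dopaminergic neurons and differences in the tissue dissected cannot be told apart here. Transcripts of the choroid plexus, a tissue of the ventricles, summed to 35.0 to 340 FPKM over 6 markers in vehicle, 948 to 2055 FPKM in MPTP and 20.7 to 942 FPKM in exercise libraries. All 3 MPTP libraries thus lay above all vehicle libraries in this sum, as they did in Gpx4, while the exercise and vehicle libraries overlapped in it. Ttr made up most of the sum, with a mean of 1539 FPKM in MPTP against 134 FPKM in vehicle libraries. Folr1, Kl, Kcne2 and Clic6 were also higher in MPTP than in vehicle without overlap, while Aqp1 overlapped. Microglia markers, 8 of 8 above 0 in every library, summed to 119 to 142 FPKM in vehicle, 132 to 177 FPKM in MPTP and 123 to 147 FPKM in exercise libraries. Slc7a11 and this sum had a Pearson r of 0.520 (exact permutation p = 0.153, adjusted p = 0.306) and a Spearman rho of 0.5 over the 9 libraries, and r was 0.609 without the 2 farthest. Astrocyte markers summed to 559 to 706 FPKM in all, with a Pearson r of -0.407 with Slc7a11 (exact permutation p = 0.275) that was 0.485 without the 2 farthest libraries. With Gpx4 the astrocyte sum had a Pearson r of 0.588 (exact permutation p = 0.0983, adjusted p = 0.246) and a Spearman rho of 0.45, and r was 0.485 without the 2 farthest libraries. The microglia sum had an r of 0.245 with Gpx4 (exact permutation p = 0.527), which was -0.469 without the 2 farthest. The oligodendrocyte sum had an r of 0.061 with Gpx4 over the 6 libraries not highest in their group (exact permutation p = 0.903). Beyond these relations the part of cell types in the levels of the 10 genes was not tested.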

How the data were processed

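The values are FPKM as the authors computed and deposited them, for 55335 genes in 9 libraries. Per the labels' protocols, mRNA was enriched on beads from total RNA and sequenced on an Illumina NovaSeq6000. Per the submitters' processing notes, bcl2fastq, HTSeq and DESeq2 and build GRCm38 were used; the aligner, FPKM tool and strandedness were not given in the sources used here. Library totals from 44800000 to 54400000 put the most low FPKM values on whole-read steps. At these totals 48.5% to 51.4% lay within 2% of a step, a share not compared with that of evenly spread values. Depth was not taken from these totals, and no count test was made. Symbols came from GENCODE M21 (55154 of 55335 matched).

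The 15997 genes averaging 0.5 FPKM or more were tested on log2(FPKM + 1) with limma 3.58.1 (trend, R 4.3.3), all 9 libraries in 1 fit, two-sided, with Benjamini-Hochberg adjustment. Correlations and permutations were exact and two-sided, computed in Python 3.11.15 with numpy 2.4.6 and pandas 2.3.3. The code was tested on simulated data. Same-numbered MPTP and vehicle libraries deviated together (correlations 0.25, 0.33 and 0.11), which did not hold for exercise against MPTP (-0.34, -0.13 and 0.25) or vehicle (-0.26, 0.0069 and 0.24), so the replicate number was also entered as a block. No libraries were identical (Pearson r of 0.956 to 0.982).

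Named genes are the 10 members, Alox12, genes with the smallest p of each companion list and the 3 most alike in pattern to Slc7a11 and Gpx4. Where a symbol had 2 identifiers the one with the higher mean was used. The members and the gene lists were chosen with earlier results of these data known. Alternatives changed the pseudocount, filter, scaling, variance model and libraries.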

Additional observations from a re-analysis of the deposited data

How the results depend on the processing

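The 10 members had 0 calls in all 3 comparisons under each of the 25 alternatives, and so had the companion lists; Slc7a11, Gss and Chac1 were not tested at a minimum mean of 5 FPKM. Gpx4 stayed higher than vehicle in all of them, by 0.24 to 0.43 for MPTP and 0.15 to 0.43 for exercise (lowest adjusted p 0.759 and 0.430), and Slc7a11 stayed lower under exercise than in vehicle, by -0.31 to -0.06. Members near 0 turned sign, and the cause was not tested; Gclm, farther from 0, turned sign without the third exercise library, its lone low value. The 2 settings that left out libraries by Slc6a3 or by oligodendrocyte markers were chosen after seeing the data. The replicate block gave 3, 0 and 0 genes called, in the order MPTP against vehicle, exercise against MPTP and exercise against vehicle, where the fit reported gave 2, 0 and 0. Pairing by number changed no member's call. In that order, leaving out single libraries gave 0 to 32, 0 to 25 and 0 to 2 genes, with 32 and 25 without the first MPTP library. Between MPTP and vehicle, 1 gene was called without the 3 libraries with Slc6a3 under 1 FPKM, 0 when only the 2 groups compared were fitted and 24 without the libraries highest in oligodendrocyte markers. Between exercise and MPTP 3 were called without the filter, 10 without the libraries highest in oligodendrocyte markers, and 1 each with a minimum mean of 5 FPKM, the same sum, array weights or without the libraries low in Slc6a3. Between exercise and vehicle 1 was called without the libraries highest in oligodendrocyte markers. Log2 fold changes that took the opposite sign are given here by setting. With every library scaled to the same FPKM sum they were Slc3a2 at -0.00900, Gclc at -0.045 and Lap3 at -0.017 between MPTP and vehicle, Ggt7 at -0.00141 between exercise and MPTP, and Slc3a2 at -0.064, Gclc at -0.057 and Gpx1 at -0.068 between exercise and vehicle. With the same sum outside the mitochondrial genome they were Gclc at -0.031 and Lap3 at -0.00317 between MPTP and vehicle, Ggt7 at -0.00270 between exercise and MPTP, and Slc3a2 at -0.052, Gclc at -0.045 and Gpx1 at -0.056 between exercise and vehicle. With scaling by the median log2 ratio they were Gclc at 0.014 and Gpx4 at 0.014 between exercise and MPTP, and Gsr at 0.00212 and Ggt7 at 0.010 between exercise and vehicle. Under quantile normalization they were Ggt7 at -0.00485 between exercise and MPTP, and Slc3a2 at -0.018, Gsr at 0.00192 and Gpx1 at -0.039 between exercise and vehicle. With array weights they were Gss at -0.00821 and Gpx7 at 0.064 between exercise and MPTP, and Slc3a2 at -0.020 and Gpx1 at -0.022 between exercise and vehicle. Without the 3 libraries with Slc6a3 under 1 FPKM they were Gpx7 at 0.26, Ggct at -0.00573 and Pts at 0.040 between exercise and MPTP, and Slc3a2 at -0.080, Gpx1 at -0.12 and Chac2 at -0.00386 between exercise and vehicle. Without the library highest in oligodendrocyte markers in each group they were Slc3a2 at -0.00792 and Ggt7 at 0.023 between MPTP and vehicle, Ggt7 at -0.037 between exercise and MPTP, and Slc3a2 at -0.062, Gpx1 at -0.065 and Chac1 at 0.098 between exercise and vehicle. With single libraries left out, the genes whose sign turned ran, between MPTP and vehicle, Slc7a11 from -0.14 to 0.055, Slc3a2 from -0.028 to 0.12, Gclc from -0.037 to 0.095, Chac1 from -0.19 to 0.000629, Ggt7 from -0.079 to 0.025 and Lap3 from -0.00487 to 0.17. The same ranges were, between exercise and MPTP, Slc3a2 from -0.11 to 0.000601, Gclc from -0.072 to 0.059, Gclm from -0.82 to 0.020, Gpx4 from -0.097 to 0.089, Chac1 from -0.055 to 0.13, Ggt7 from -0.039 to 0.065, Gpx7 from -0.14 to 0.078, Ggct from -0.016 to 0.073, Lap3 from -0.14 to 0.019 and Pts from -0.18 to 0.00761. The same ranges were, between exercise and vehicle, Slc3a2 from -0.076 to 0.068, Gclc from -0.036 to 0.065, Gclm from -0.67 to 0.17, Gss from -0.13 to 0.042, Gsr from -0.044 to 0.019, Gpx1 from -0.079 to 0.083, Chac1 from -0.15 to 0.029, Ggt7 from -0.047 to 0.017 and Gpx8 from -0.00397 to 0.40. The number of fragments behind each value was not derived, so the precision of low genes such as Slc7a11 and Alox12 rests on the spread of 3 libraries per group.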
